A study of Mus musculus with 45 samples.

Results

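The genes described here are the 8 that carry macrophage arginine towards nitric oxide or ornithine: the inducible nitric oxide synthase *Nos2*, the arginases *Arg1* and *Arg2*, the citrulline-recycling enzymes *Ass1* and *Asl*, the cationic amino acid transporters *Slc7a1* and *Slc7a2*, and *Gch1*, which starts the synthesis of the cofactor tetrahydrobiopterin. They were chosen by name for their place in the pathway, with earlier results of these data known. All 8 were found among the 29307 genes counted. RNA was sequenced from bone marrow-derived macrophages of C57BL/6N mice 6 to 10 weeks old. The mice, bred from heterozygous parents, were engineered to carry 1 of 3 human variants of FAMIN, encoded by *Lacc1*: the non-risk form *Famin* p.254I, the risk variant *Famin* p.254V or the monogenic disease variant *Famin* p.284R; no library of unmodified *Famin* +/+ mice is among the groups. Bone marrow of every group was cultured for 6 days in medium containing M-CSF. The macrophages were then polarized for 24 h, with IFN-γ at 50 ng/mL plus LPS at 20 ng/mL (M1), with IL-4 at 20 ng/mL (M2), or left unstimulated (M0). Each genotype gave 5 mice, hence 9 groups of 5 libraries and 45 libraries in all. The M0, M1 and M2 libraries of the same genotype and number are taken below as 3 cultures of the same mouse, a reading of the sample names that the sources do not spell out.

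Nitric oxide synthase oxidizes arginine to nitric oxide and citrulline, and arginase splits the same arginine into urea and ornithine, so the enzymes draw on 1 substrate. Argininosuccinate synthase (*Ass1*) and argininosuccinate lyase (*Asl*) turn citrulline back into arginine, and the cationic transporters CAT1 (*Slc7a1*) and CAT2 (*Slc7a2*) bring arginine in from outside. In mouse macrophages *Nos2* and *Arg1* are the textbook genes of activation by IFN-γ with LPS and by IL-4.

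On GRCm38, *Nos2* lies at chr11:78920787-78960254 on the plus strand, *Arg1* at chr10:24915221-24927484 on the minus strand, *Arg2* at chr12:79130777-79156301 on the plus strand, and *Ass1* at chr2:31470207-31520672 on the plus strand. *Asl* lies at chr5:130011258-130029247 and *Slc7a1* at chr5:148327410-148399904, both on the minus strand, *Slc7a2* at chr8:40862396-40922308 on the plus strand, and *Gch1* at chr14:47153895-47189413 on the minus strand. Exons of *Arg2* overlap those of *Vti1b* and Gm48780 on the opposite strand, and exons of *Slc7a2* overlap Gm26584 there. Of the 50-base windows in the longest *Ass1* transcript, 55.3% also occur in Gm5424, a processed pseudogene, so *Ass1* values are uncertain to the extent that reads were divided between them. That share was 21.2% for *Arg2*, where *Vti1b* and Gm48780 held the shared windows, 1.83% for *Slc7a2*, and at most 0.168% for the other 5.

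RefSeq promoter sequences (GRCm38.p6) were found for 3 of the 8 genes, *Ass1*, *Gch1* and *Slc7a1*, the last with 2 starts. *Nos2*, *Arg1*, *Arg2*, *Asl* and *Slc7a2* had no entry. The 250 bases before each start are shown so that the genes that differed in their response to IFN-γ with LPS can be compared. They read 5′ to 3′ on the gene's strand, and capitals mark every match to any of 6 motifs on either strand.
*Ass1*, chr2:31470020-31470269, plus strand: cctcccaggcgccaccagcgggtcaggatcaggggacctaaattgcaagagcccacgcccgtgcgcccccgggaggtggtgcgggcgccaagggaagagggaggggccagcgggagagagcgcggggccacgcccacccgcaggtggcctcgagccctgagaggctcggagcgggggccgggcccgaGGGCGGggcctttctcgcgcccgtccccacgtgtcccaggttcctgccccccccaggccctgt
*Gch1*, chr14:47189414-47189663, minus strand: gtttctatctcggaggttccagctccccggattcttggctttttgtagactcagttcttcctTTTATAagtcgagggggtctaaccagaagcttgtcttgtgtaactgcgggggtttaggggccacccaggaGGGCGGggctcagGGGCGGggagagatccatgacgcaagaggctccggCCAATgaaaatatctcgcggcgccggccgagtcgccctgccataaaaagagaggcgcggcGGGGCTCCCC
*Slc7a1*, first start, chr5:148399905-148400154, minus strand: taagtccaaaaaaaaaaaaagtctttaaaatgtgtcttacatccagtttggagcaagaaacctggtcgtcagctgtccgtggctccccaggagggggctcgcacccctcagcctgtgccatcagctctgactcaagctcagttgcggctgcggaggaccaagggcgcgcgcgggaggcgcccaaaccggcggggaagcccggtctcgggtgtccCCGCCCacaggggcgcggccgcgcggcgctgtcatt
*Slc7a1*, second start, chr5:148392816-148393065, minus strand: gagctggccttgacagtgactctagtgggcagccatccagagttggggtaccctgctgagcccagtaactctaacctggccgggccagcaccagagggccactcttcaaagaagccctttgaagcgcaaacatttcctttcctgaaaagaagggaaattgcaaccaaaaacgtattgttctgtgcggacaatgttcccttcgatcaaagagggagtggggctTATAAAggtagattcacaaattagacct
The motifs were the TATA box (TATAAA), the CCAAT box, the GC box (GGGCGG), a STAT6 site (TTCNNNNGAA), an interferon response element (GAAANNGAAA) and the NF-κB site. They were present in 12.4%, 33.8%, 32.7%, 5.85%, 2.98% and 3.9%, in that order, of 32851 mouse promoters of the same length. The *Ass1* window held a GC box 63 bases before the start and none of the others. The *Gch1* window held GC boxes 118 and 105 bases before the start, a CCAAT box at 70, an NF-κB match at 10 and, on the opposite strand, TATAAA at 188. The first *Slc7a1* start had a GC box on the opposite strand at 36, whereas the second start had TATAAA at 28. No window held the STAT6 or the interferon response motif. A match is a description of the letters, and none was tested for binding.

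The libraries held 17239009 to 43740283 counts (median 27553642). Before the TMM normalisation of the library values below, 1 CPM (counts scaled to a common library size) stood for 17.2 to 43.7 reads. All 6 macrophage markers examined exceeded 1 CPM in every library, whereas T cell, B cell, NK cell, mast cell and erythroid markers each summed to at most 0.487 CPM in any library. Summed neutrophil markers ranged from 5.33 to 79 CPM. Summed stromal markers had medians of 18.1 CPM in M0, 4.86 in M1 and 7.66 in M2. In the same order, summed endothelial markers had medians of 5.97, 6.05 and 13.8 CPM, and summed dendritic cell markers of 0.788, 0.515 and 7.44 CPM. The 2 endothelial markers parted in M2 against M0, *Pecam1* being called higher and *Cdh5* lower. Of 3 dendritic cell markers only *Zbtb46* was abundant enough to test, and it was higher in M2 than in M0 (log2 fold change 3.69). The part of neutrophils and of stromal, endothelial and dendritic cells in the differences between polarizations was not tested. In bulk RNA, fewer cells that use a gene and less of its RNA per cell cannot be told apart. *Lacc1* itself ranged from 218 to 597 CPM in M1, and because the variants change the coding sequence, its read counts do not check the labels. In *Famin* p.284R M1 libraries, *Lacc1* was at 396, 263 and 218 CPM in replicates 1 to 3, whereas replicates 4 and 5 were at 584 and 553 CPM. Replicates 1 to 5 were at 119, 108, 91.2, 169 and 160 CPM in M0 and 122, 56.8, 66.6, 200 and 175 CPM in M2. In each polarization replicates 1 to 3 lay below every *Famin* p.254I and p.254V library. The difference from *Famin* p.254I averaged over the polarizations (log2 fold change -0.42, SE 0.13) did not pass the test (adjusted p = 0.58).

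Polarization changed nearly the whole set (edgeR quasi-likelihood test over 12905 genes, adjusted p under 0.05, averaged over genotypes). In M1 against M0, 6 of the 8 genes rose and 2 fell, against a background of 37% of all genes tested that rose and 40.3% that fell. In M2 against M0, 5 rose and 2 fell, with 36.8% and 39.6% of all genes doing so. Between the polarized states, 3 were higher and 4 lower in M1 than in M2, against 39% and 40.1% of all genes. The median log2 fold change of the 8 was 0.72, 1.41 and -0.23 in these 3 comparisons, and that of all genes tested was within 0.03 of 0. With more than 3 in 4 of all genes called, these counts do not set the 8 genes apart, and the size of the changes carries the description.

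**Figure D1:**
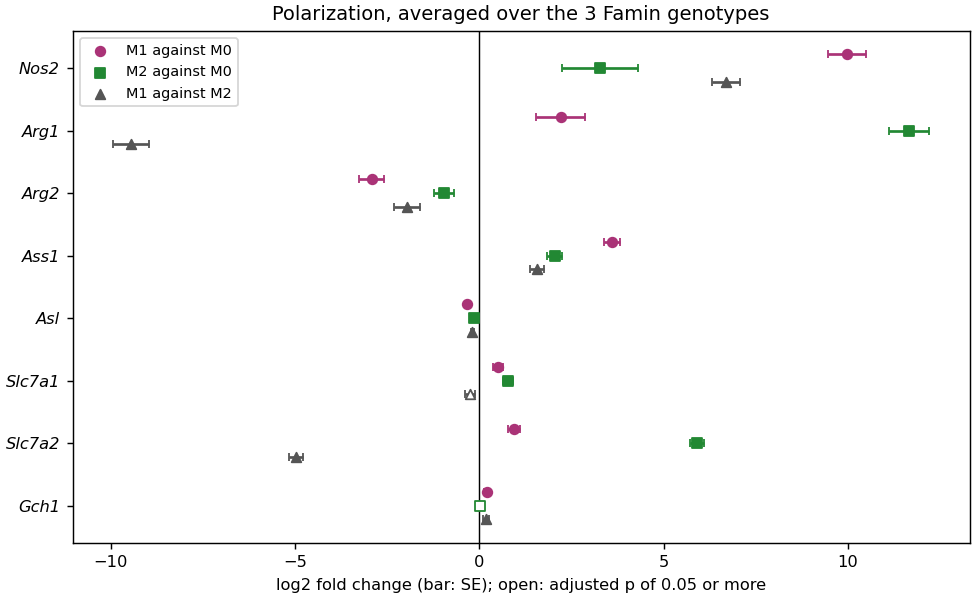
Log2 fold change (x axis) of each of the 8 genes between polarizations, averaged over the 3 *Famin* genotypes; points are edgeR estimates from 45 libraries, bars are standard errors, and open symbols did not pass adjusted p under 0.05. *Nos2* (9.97) and *Arg1* (11.65) moved most, in M1 and in M2 against M0, while *Asl* and *Gch1* stayed within 0.35 of 0.

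*Nos2*, the inducible synthase, was close to absent in M0. The 15 M0 libraries held 13 *Nos2* counts in all, and 8 of them held none. In M1 the 15 libraries held 14635 counts, from 93 to 5178 in a library. The ratio of pooled CPM, M1 over M0, was 1190 (95% exact interval 697 to 2240, counting error only), and the fitted log2 fold change was 9.97 (SE 0.52, adjusted p = 2.8e-20). The lowest M1 library, at 3.01 CPM, lay above the highest M0 library, at 0.156 CPM. M2 libraries held 118 counts, between 0 and 0.574 CPM, and in 14 of 15 mice the M2 culture exceeded the M0 culture. That difference passed the test (log2 fold change 3.28, SE 1.03, adjusted p = 0.0041) although ranges overlapped, and with limma-voom in place of edgeR it did not (adjusted p = 0.17). M1 exceeded M2 by 6.69 on the log2 scale (SE 0.39) without overlap.

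*Arg1*, the cytosolic arginase, was the gene of M2. In M0 it ranged from 0.0391 to 0.719 CPM. In M2 the 5 *Famin* p.254I libraries were at 1150, 1400, 929, 1030 and 802 CPM, the *Famin* p.254V libraries at 1130, 1420, 951, 705 and 869 CPM, and the *Famin* p.284R libraries at 1150, 1380, 1030, 734 and 819 CPM. All 15 were far above every M0 and M1 library, and the 3 genotypes covered the same range, with replicate 2 highest in each. The log2 fold change of M2 against M0 was 11.65 (SE 0.54, adjusted p = 1.2e-21), and M1 lay below M2 by -9.45 (SE 0.48). In M1, 14 of the 15 libraries were between 0.256 and 0.912 CPM and the *Famin* p.254I replicate 5 library was at 40.8 CPM. M1 against M0 passed the test with that library (2.20, SE 0.67, adjusted p = 0.0031) and without it (1.00, SE 0.26, adjusted p = 0.00088), so the estimate was more than halved on the log2 scale. The ratio of pooled CPM was 7.66 with it and 1.86 (1.51 to 2.3) without it.

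*Arg2*, the mitochondrial arginase, fell in both polarized states. It ranged from 0.203 to 3.47 CPM in M0 (median 1.00), from 0.0325 to 0.365 CPM in M1 (median 0.137) and from 0.222 to 0.925 CPM in M2 (median 0.647). M1 cultures were below the M0 culture of the same mouse in 15 of 15 mice (log2 fold change -2.92, SE 0.34, adjusted p = 3e-10), and M2 was lower than M0 by -0.96 (SE 0.28, adjusted p = 0.002). These are small numbers, 532 counts over the M0 libraries and 60 over the M1 libraries. Per kilobase of exon, *Arg1* made up 16% ± 9.93 (SD, n = 15) of the 2 arginases in M0, 75% ± 14.9 in M1 and 99.9% ± 0.0565 in M2. The M1 share ranged from 39.1% to 99.4%, and its rise over M0 accompanied the fall of *Arg2* at *Arg1* levels under 1 CPM in 14 libraries.

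The citrulline-recycling enzymes parted. *Ass1*, which joins citrulline to aspartate, was at 2.42 to 6.27 CPM in M0, at 22.3 to 93.1 CPM in M1 and at 6.42 to 41.5 CPM in M2. M1 and M2 each lay wholly above M0, with log2 fold changes of 3.6 (SE 0.22, adjusted p = 2.2e-18) and 2.04 (SE 0.21, adjusted p = 2.9e-11), and M1 exceeded M2 by 1.56 (SE 0.19). *Asl*, which completes the step, moved little. It was at 51.0 to 61.9 CPM in M0, 39.3 to 47.0 CPM in M1 and 44.7 to 54.5 CPM in M2, and it fell by 0.35 on the log2 scale in M1 (SE 0.04, adjusted p = 2e-11) and by 0.15 in M2 (SE 0.04, adjusted p = 0.00036). The M0 and M1 ranges did not overlap.

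Of the transporters, *Slc7a2* carried the M2 response. It was at 2.62 to 17 CPM in M0, 12.2 to 36.2 CPM in M1 and 458 to 771 CPM in M2, a log2 fold change of 5.90 for M2 (SE 0.20, adjusted p = 4.4e-26) and of 0.94 for M1 (SE 0.17, adjusted p = 5.7e-06). The M2 libraries lay above all others, and M1 exceeded M0 in 15 of 15 mice with overlapping ranges. *Slc7a1*, the constitutive carrier, rose less, by 0.51 in M1 (SE 0.14, adjusted p = 0.0015) and by 0.77 in M2 (SE 0.14, adjusted p = 8.4e-06), from 15.2 to 47.9 CPM in M0 to 27.5 to 54.5 CPM in M1 and 30.0 to 62.9 CPM in M2. M1 and M2 were not called different for it (-0.26, SE 0.14, adjusted p = 0.097), but were with replicate number as a block (-0.28, adjusted p = 0.038). Per kilobase of exon *Slc7a2* made up 31.8% ± 13 (SD, n = 15) of the 2 transporters in M0, 37.6% ± 5.67 in M1 and 94.1% ± 0.823 in M2.

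*Gch1*, GTP cyclohydrolase, hardly moved. It ranged from 19.1 to 29.3 CPM in M0, from 16.3 to 35.3 CPM in M1 and from 18.4 to 26.1 CPM in M2. M1 exceeded M0 by 0.20 on the log2 scale (SE 0.08, adjusted p = 0.022) in 9 of 15 mice, and the call was lost without *Famin* p.254I replicate 3 (adjusted p = 0.057), *Famin* p.254V replicate 3 (0.055) or *Famin* p.284R replicate 4 (0.061). M1 against M2 (0.19, SE 0.08, adjusted p = 0.029) was lost in 8 of the 15 fits that left out a mouse and with the mouse as a replicate block (0.18, SE 0.09, adjusted p = 0.063). M2 against M0 was 0.01 (SE 0.08, adjusted p = 0.92).

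**Figure D2:**
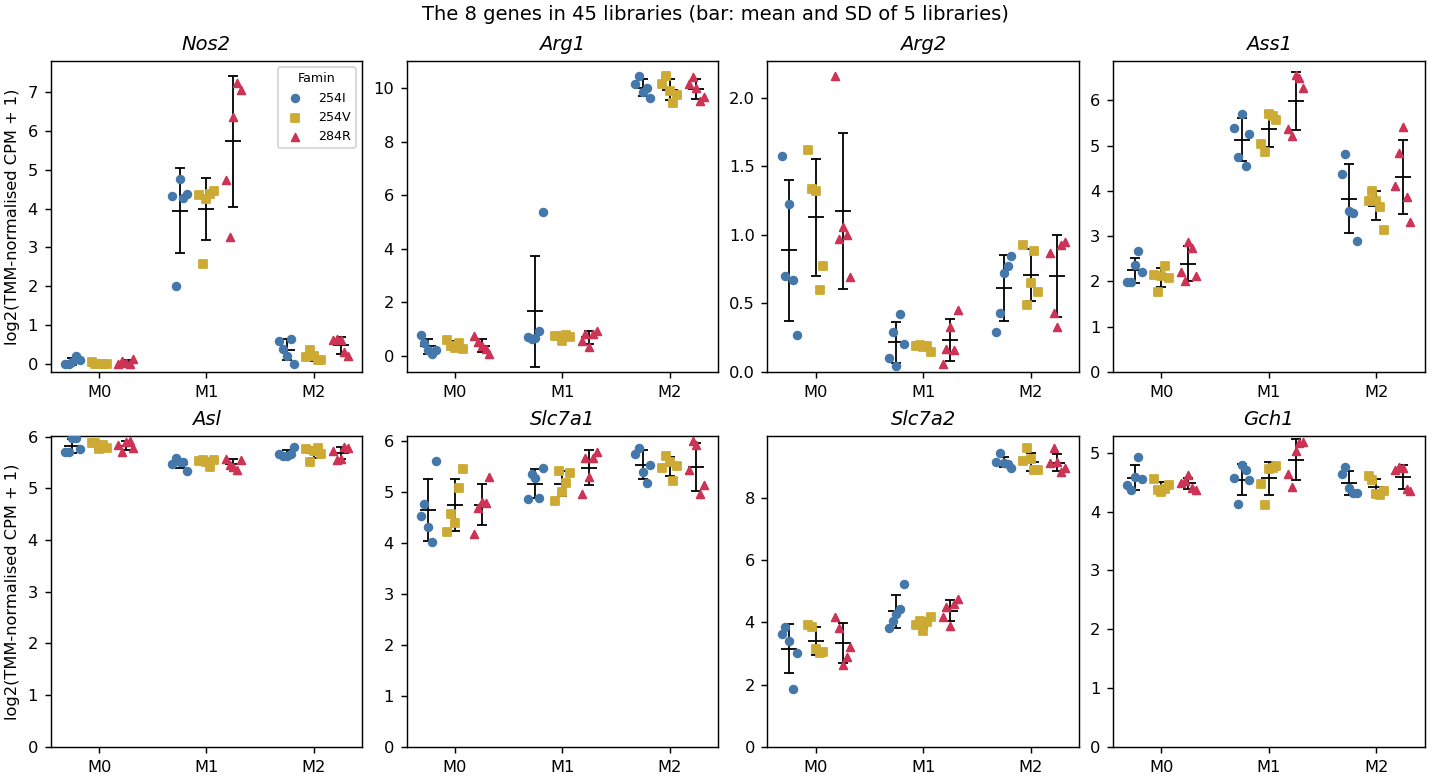
Log2 of TMM-normalised CPM plus 1 (y axis) for the 8 genes in each of 45 libraries, by polarization (x axis) and *Famin* genotype (colour and symbol); bars are the mean and SD of 5 libraries. *Nos2* stands apart in M1 and *Arg1* and *Slc7a2* in M2, the *Famin* p.254I replicate 5 library is the single high *Arg1* point in M1 (40.8 CPM), and 3 *Famin* p.284R libraries are the highest *Nos2* points.

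Ordered by level per kilobase of exon, averaged over 15 libraries, the set began in M0 with *Asl* (11.5 CPM per kb), *Gch1* (3.45) and *Slc7a1* (2.31) and ended with *Arg1* (0.142) and *Nos2* (0.00717). Only *Asl* was clear of its neighbour there, the other adjacent pairs having overlapping ranges. In M1 the order was *Ass1* (19.9), *Asl* (9.07), *Nos2* (8.52), *Gch1* (3.99), *Slc7a1* (3.33), *Slc7a2* (2.03), *Arg1* (1.49) and *Arg2* (0.111), and every adjacent pair overlapped. *Nos2* spanned 0.681 to 33.7 CPM per kb in M1, and the *Arg1* mean rests on 1 library. In M2 *Arg1* (464) was followed by *Slc7a2* (62.7), *Asl* (10.4) and *Ass1* (6.69), and the first 3 places were separated without overlap. *Nos2* was last there (0.0649).

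**Figure D3:**
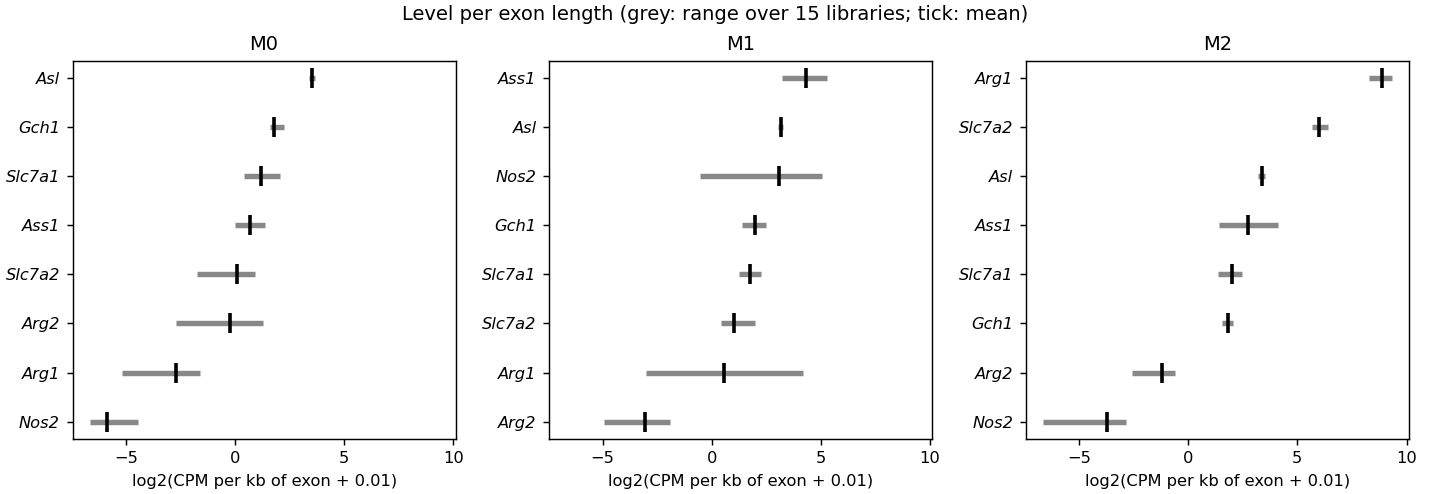
Level per kilobase of exon union in CPM, on a log2 axis with 0.01 added, for each gene (rows, ordered by mean) in M0, M1 and M2; grey bars span the lowest to the highest of 15 libraries and black ticks mark the mean. *Asl* leads in M0 (11.5 CPM per kb) and *Arg1* in M2 (464), and the ranges of all adjacent genes overlap in M1.

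Genotype was compared within each polarization, which asks whether the FAMIN variants changed the expression of these genes. In M1, *Famin* p.284R against p.254I called 2 of the 8 genes, *Nos2* higher and *Arg1* lower, against 0.263% of all genes tested (34 genes). *Famin* p.284R against p.254V in M1 called *Nos2* alone, with 0.0775% of all genes called. *Nos2* is in a gene list in the study's supplement that was drawn from these same libraries, so its call here is not independent evidence.

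*Nos2* in M1 was at 19.0, 3.01, 26, 18.4 and 19.7 CPM in *Famin* p.254I replicates 1 to 5. It was at 19.2, 4.92, 17.8, 19.9 and 20.9 CPM in *Famin* p.254V, and at 25.6, 8.6, 81.5, 149 and 131 CPM in *Famin* p.284R. Replicate 2 was the lowest library of each genotype, replicates 3 to 5 of *Famin* p.284R were above every other M1 library, and the group ranges overlapped. With libraries of the same number set side by side, *Famin* p.284R was the highest of the 3 genotypes in 5 of 5. Its ratio to *Famin* p.254I was 1.35, 2.86, 3.13, 8.09 and 6.63, and its ratio to *Famin* p.254V was 1.33, 1.75, 4.57, 7.46 and 6.25. The fitted log2 fold change was 2.20 against *Famin* p.254I (SE 0.45, adjusted p = 0.017) and 2.25 against *Famin* p.254V (SE 0.45, adjusted p = 0.033), and -0.05 between *Famin* p.254V and p.254I (SE 0.44, adjusted p = 1).

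As a single value per library, log2(CPM + 1) of *Nos2* was 5.73 ± 1.69 (SD, n = 5) in *Famin* p.284R, 3.95 ± 1.10 in p.254I and 4.0 ± 0.8 in p.254V. The two-sided exact permutation test gave p = 0.095 for *Famin* p.284R against p.254I and 0.087 against p.254V, both 0.14 after adjustment over the 3 pairs of genotypes. The same exact test gave p = 0.82 for *Famin* p.254V against p.254I, and the smallest p that 5 against 5 allow is 0.0079. Paired by number, the exact sign-flip test gave its smallest possible p, 0.062, for both comparisons with *Famin* p.284R. In the edgeR fit with replicate number as a block the *Nos2* difference held (2.02, SE 0.32, adjusted p = 0.001 against p.254I, and 1.99, SE 0.33, adjusted p = 0.0025 against p.254V).

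The call depended on the libraries and the tool. Without *Famin* p.284R replicate 3, 4 or 5, the adjusted p against *Famin* p.254I was 0.11, 0.17 and 0.15, and without *Famin* p.254I replicate 1, 2 or 4 it was 0.068, 0.075 and 0.077, with log2 fold changes of 1.83 to 2.24 in these fits. Against *Famin* p.254V it was lost in 10 of the 15 fits that left out a mouse, at most to 0.47 without *Famin* p.284R replicate 4. limma-voom (adjusted p = 0.17), the DESeq2 Wald test (0.11) and a fit of the compared libraries alone (0.81) did not call it against *Famin* p.254I. The estimate against *Famin* p.254I stayed between 1.83 and 2.49 in all 24 alternatives that tested it. Whether the M1 response itself differed between genotypes was tested as an interaction with M0, where *Nos2* counts were few, and the estimate of 2.78 (SE 2.52) was not called (adjusted p = 1).

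Other M1-induced genes stood out in the same libraries. *Cxcl10*, an interferon-induced chemokine, was at 343, 445, 1220, 981 and 1160 CPM in the M1 libraries of *Famin* p.284R and at 309 to 489 CPM in the other 10. *Cxcl9* was at 5340, 4720 and 5130 CPM in *Famin* p.284R replicates 3 to 5, above all other M1 libraries, and *Gbp2* ranged from 8050 to 9830 CPM over all 15. The *Cxcl10* difference between *Famin* p.284R and p.254I (1.22, SE 0.36) did not pass the test (adjusted p = 0.24). *Il12b*, another M1 marker, was at or under 0.201 CPM in every M1 library. The part that strength of stimulation plays in the *Nos2* difference was not tested.

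*Ass1* in M1 was at 41.1, 26, 50.8, 22.3 and 37.4 CPM in *Famin* p.254I, at 31.6, 28.1, 50.9, 49.4 and 46.3 CPM in *Famin* p.254V, and at 40.6, 36.1, 93.1, 89.8 and 76.4 CPM in *Famin* p.284R. Replicates 3 to 5 of *Famin* p.284R were again the highest, and *Famin* p.284R was the highest genotype in 4 of 5 numbers. The difference from *Famin* p.254I (0.92, SE 0.32, adjusted p = 0.41) and from p.254V (0.70, SE 0.32, adjusted p = 0.76) did not pass the test. *Gch1* in M1 was at 22.7, 16.4, 26.7, 25.2 and 22.1 CPM in *Famin* p.254I, at 21.1, 16.3, 25.5, 25.7 and 26.5 CPM in *Famin* p.254V, and at 24, 20.3, 31.5, 34.8 and 35.3 CPM in *Famin* p.284R. *Famin* p.284R was the highest of the genotypes in 5 of 5 numbers in M1, and in 5 of 5 in M2. In M2 the *Gch1* log2 difference from *Famin* p.254I was small, 0.11 (SE 0.14) with replicate number as a block, and was not called. In M1 it was 0.37 (SE 0.14, adjusted p = 0.48), and no alternative called *Ass1* or *Gch1* in M1 (lowest adjusted p = 0.13 and 0.10). *Slc7a1* was also highest in *Famin* p.284R in 5 of 5 numbers in M1 (0.33, SE 0.25, adjusted p = 0.92 against p.254I). The share of all genes tested that were highest in *Famin* p.284R in 5 of 5 numbers was not counted, so these ranks are a description only.

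**Figure D4:**
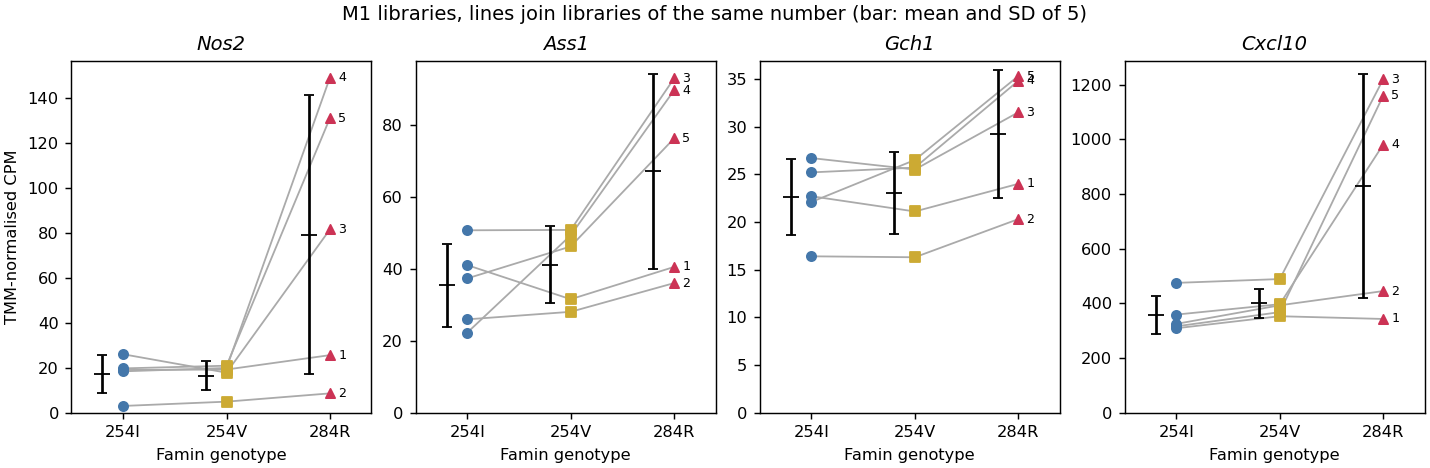
TMM-normalised CPM (y axis) of *Nos2*, *Ass1*, *Gch1* and the chemokine gene *Cxcl10* in the 15 M1 libraries by *Famin* genotype (x axis); grey lines join libraries of the same replicate number, which is printed at the right, and bars are the mean and SD of 5 libraries. Replicates 3 to 5 of *Famin* p.284R are the highest points in every panel (*Nos2* at 81.5, 149 and 131 CPM), while replicates 1 and 2 lie near the other genotypes.

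The *Arg1* difference in M1 rested on 1 library. *Arg1* was at 0.637, 0.55, 0.585, 0.902 and 40.8 CPM in *Famin* p.254I replicates 1 to 5, at 0.653, 0.666, 0.466, 0.73 and 0.625 CPM in *Famin* p.254V, and at 0.475, 0.748, 0.256, 0.776 and 0.912 CPM in *Famin* p.284R. The replicate 5 library of *Famin* p.254I held 795 *Arg1* counts, and the ranges of the other 14 coincide. The fit called *Famin* p.284R lower than p.254I (-3.69, SE 0.83, adjusted p = 0.031), while *Famin* p.254V, with a like estimate (-3.70, SE 0.81), was not called (adjusted p = 0.31). Without that library the estimate for *Famin* p.284R was -0.08 (SE 0.43, adjusted p = 1), and with replicate number as a block the call was lost (-3.14, SE 0.88, adjusted p = 0.11). limma-voom gave -1.09 (adjusted p = 0.94) and DESeq2 -3.79 (adjusted p = 0.00055).

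The same library had other genes of IL-4-treated macrophages. *Retnla* was at 49.1 CPM against at most 0.249 in the other 14 M1 libraries, *Mgl2* at 15 against at most 2.37, *Chil3* at 33.7 against at most 19.3 and *Mrc1* at 238 against at most 219. *Slc7a2* was also highest there, at 36.2 CPM against at most 25.9. As shares of the M2 culture of the same mouse, these levels were 1.74% for *Retnla*, 2.29% for *Chil3* and 3.47% for *Mgl2*. They were 5.09% for *Arg1*, 7.27% for *Slc7a2* and 19.1% for *Mrc1*. The shares include the ordinary M1 level. Its median in the other 14 M1 libraries was 142 CPM for *Mrc1*, 16.2 for *Slc7a2* and 9.63 for *Chil3*. For *Arg1*, *Mgl2* and *Retnla* that median was 0.645, 0.715 and 0.0386 CPM. The *Mrc1* share is not particular to this library, as *Famin* p.254I replicate 2 had *Mrc1* at 212 CPM in M1 and 773 CPM in M2. *Ccl17* was at 0 in all M1 libraries but at only 1.04 CPM in that M2 culture, so its absence says little. Its *Nos2* (19.7 CPM) and *Cxcl9* (3180 CPM) lay within the range of the other M1 libraries. The part of a mixture of M2 material in this library was not tested.

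**Figure D5:**
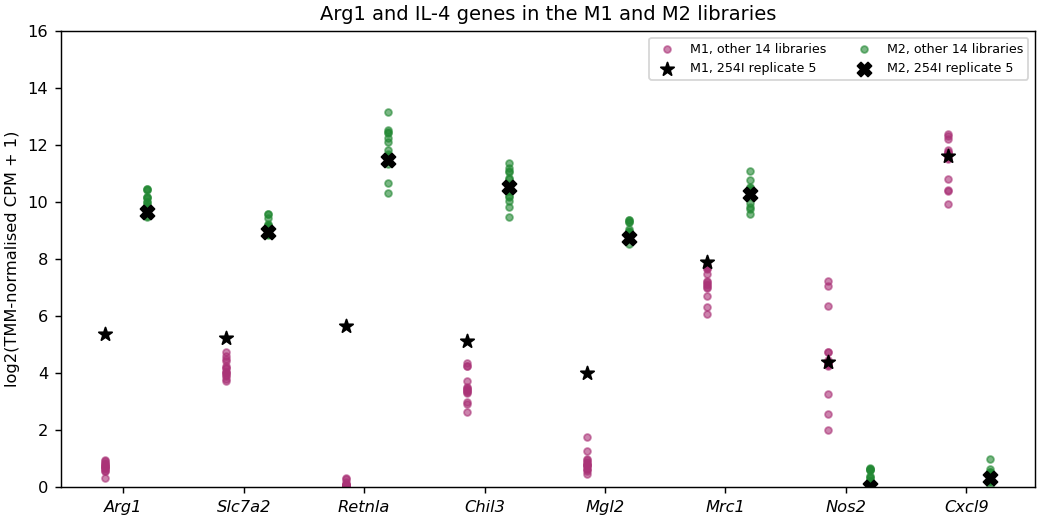
Log2 of TMM-normalised CPM plus 1 (y axis) for *Arg1*, *Slc7a2*, 4 genes of the IL-4 response, *Nos2* and *Cxcl9* in the M1 (purple) and M2 (green) libraries; black symbols are the M1 (star) and M2 (cross) cultures of *Famin* p.254I replicate 5. The star lies above the other 14 M1 libraries for *Arg1* (40.8 CPM), *Slc7a2* (36.2), *Retnla* (49.1), *Chil3* (33.7), *Mgl2* (15) and *Mrc1* (238), and among them for *Nos2* and *Cxcl9*.

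Within a library, the balance of *Nos2* to *Arg1* in M1, as log2 of (*Nos2* CPM + 1) over (*Arg1* CPM + 1), was 5.03 ± 1.69 (SD, n = 5) in *Famin* p.284R, 2.28 ± 2.11 in p.254I and 3.30 ± 0.82 in p.254V. The exact permutation p was 0.056 for *Famin* p.284R against p.254I and 0.087 against p.254V, each 0.13 after adjustment over the 3 pairs. *Famin* p.284R was higher in 5 of 5 numbers against either genotype. The p.254I values include the replicate 5 library with high *Arg1*, and without it the difference of *Famin* p.284R from p.254I was 1.93 in place of 2.75 and that of *Famin* p.254V was 0.19 in place of 1.01. In the other 14 M1 libraries *Arg1* was at most 0.912 CPM, so the ratio largely repeats the *Nos2* level. The difference of *Famin* p.284R from p.254V was 1.74 for the ratio and 1.73 for *Nos2* alone. For *Famin* p.254V against p.254I with all libraries, the exact permutation p was 0.37.

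Outside M1 no gene of the set was called between genotypes. The background was 0% of all genes tested in *Famin* p.284R against p.254I in M0, 0.00775% in M2, and 0% in *Famin* p.254V against p.254I in M0, M1 and M2. Averaged over polarizations it was 0.0155% for either variant, and for the 4 interactions of genotype with polarization it was 0%. In M0 and M2 no gene of the 8 had an unadjusted p under 0.05 for either variant against p.254I in edgeR, and limma-voom and DESeq2 called none there. Elsewhere the unadjusted p was under 0.05 for *Ass1* in *Famin* p.284R averaged (0.56, SE 0.20, adjusted p = 0.84), for *Arg1* in *Famin* p.254V averaged and in M1, for *Arg1* and *Gch1* in the interaction of *Famin* p.284R with M1, and for *Arg1* in that of *Famin* p.254V. Of these, *Arg1* in *Famin* p.254V in M1 was called by the DESeq2 Wald test (-3.8, adjusted p = 0.0016), and limma-voom called none. Without the *Famin* p.254I replicate 5 M1 library these 4 *Arg1* estimates lay between -0.18 and -0.02. For *Arg1* in M2 the difference of *Famin* p.284R from p.254I was -0.06 (SE 0.54), for *Slc7a2* 0.00 (SE 0.27) and for *Ass1* 0.54 (SE 0.33). *Asl* differed by at most 0.05 between genotypes in any of these comparisons within a polarization, each with an SE of 0.06.

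The genes most like *Nos2* over the 45 libraries, by Pearson correlation of log2(CPM + 1) among 12897 other tested genes, were *Cxcl11* (r = 0.987), *Ubd* (0.981), *Ly6i* (0.977), *Prm1* (0.976) and *Serpinb9* (0.975). Those most like *Arg1* were *Retnla* (0.996), *Mgl2* (0.993), *Il31ra* (0.992), *Ppp1r3c* (0.988) and *Cish* (0.988), and *Slc7a2* (0.984) ranked 8 with *Arg1*. The points share the polarization contrast, so these values describe mainly its shape. Over the 15 M1 libraries alone, *Gch1* ranked 13 in likeness to *Nos2* (r = 0.954) and *Ass1* ranked 289 (r = 0.855), while *Slc7a1* was at 0.28 and *Asl* at -0.392. The 3 high *Famin* p.284R libraries weigh in each of these. The genes most like *Arg1* over the M1 libraries included *Msx3* and *Scn3a* (both 0.992) and *Retnla* (0.989), and without the *Famin* p.254I replicate 5 library the value for *Retnla* was -0.104.

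The rest of the pathway, taken from lists of 43 further genes by role, was called in both directions by polarization, and none of the 30 tested was called between genotypes in edgeR. At an unadjusted p under 0.05 there were at most 2 in any genotype comparison, and the other tools were not run on this count. The counts are to be read against all genes tested, of which 37% rose and 40.3% fell in M1 and 36.8% rose and 39.6% fell in M2 against M0, and nothing particular to a list is read from its count. Of 4 tested genes of other nitric oxide synthases and their partners, 2 rose and 2 fell in M1 against M0. *Nos1*, the neuronal synthase, rose by 1.87 (SE 0.30) but stayed at or under 0.517 CPM. Of 5 tetrahydrobiopterin genes tested, none rose and 4 fell in M1, and 2 rose and 2 fell in M2. *Qdpr*, which regenerates the cofactor, fell by 0.50 in M1 (SE 0.04) and rose by 0.76 in M2 (SE 0.04). Of the urea cycle and its carriers 1 rose and 2 fell among 4 tested in M1, and 2 rose in M2. The mitochondrial aspartate-glutamate carrier *Slc25a12* rose by 1.78 in M1 (SE 0.03), while its paralog *Slc25a13* fell by 0.54 in M1 (SE 0.05) and rose by 1.10 in M2 (SE 0.05).

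Among ornithine and arginine disposal genes, 6 of 7 tested rose in M2 and none fell (all genes: 36.8% rose, 39.6% fell). The largest rise was that of *Azin2* (1.31, SE 0.08), an antizyme inhibitor. In M1, 3 rose and 2 fell, against 37% and 40.3% of all genes. *Aldh18a1*, which makes proline and ornithine precursors from glutamate, rose by 0.96 in M1 (SE 0.11) and *Gamt*, of creatine synthesis, fell by 0.80 (SE 0.09). Among 6 other carriers of cationic amino acids, 3 rose and 2 fell in M1, and 1 rose and 3 fell in M2, where *Slc7a7*, the y+L exporter subunit, fell by 1.98 (SE 0.07). Of 3 methylarginine genes tested, 2 fell in M1 and 2 fell and 1 rose in M2. *Ddah2*, whose family clears the nitric oxide synthase inhibitor dimethylarginine, fell by 1.55 in M2 (SE 0.15), and *Ddah1* fell by 2.20 in M1 (SE 0.39) from at most 1.01 CPM in M0. Of 5 listed genes of nitric oxide targets and removal, only *Adh5* was abundant enough to test, and it fell by 0.15 in M1 (SE 0.03) and rose by 0.26 in M2 (SE 0.03).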

How the data were processed

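Stranded TruSeq mRNA libraries (1x50 bases) of cultured macrophages were trimmed with Trim Galore and aligned with HISAT2 to mm10, per the study's methods and the submitters' processing notes, whereas the series text names Cutadapt and STAR. The counting tool, its annotation and its use of strand were not given in the sources used here. The authors deposited whole-number counts for 29307 genes and a table of CPM (library-size-scaled counts) for 11900 genes. All reads recovered from the CPM were whole to within 0.01 and equal to the counts. The members and lists were chosen with earlier results of these data known. All 8 members are named, and from each pathway list the called genes of largest rise and fall.

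Counts were fitted in edgeR 4.0.16 (filterByExpr, TMM factors 0.939 to 1.1, robust quasi-likelihood, 12905 genes, 9 groups, 45 libraries, Benjamini-Hochberg), first tested on simulated data. CPM in the text are TMM-normalised. Exact permutation tests (SciPy) used a pseudocount of 1 CPM. limma 3.58.1 and DESeq2 1.42.0 were alternatives. Lengths and positions are from GENCODE M21. Same-numbered libraries of different genotypes deviated together in 15 of 15 pairs in M0 (r 0.12 to 0.88) and in M1 (0.29 to 0.88) and in 13 of 15 in M2 over 8211 genes, so the number pairs M0 and M1 libraries as a hint from the data, and the blocked fit (*Nos2* in M1, adjusted p = 0.001) is given where it changes a call. The 3 cultures taken as those of a mouse deviated together (r over 0.1) in 13 of 15 pairs between M0 and M1, 15 between M0 and M2 and 10 between M1 and M2. They were fitted as separate libraries, so SEs of genotype differences averaged over polarizations take the 3 cultures as independent. In edgeR the mouse as a replicate block was an alternative for polarization comparisons and interactions only. For genotype comparisons the mouse was modelled only as a random block in limma-voom.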

Additional observations from a re-analysis of the deposited data

Results flagged for a closer look

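Within each group of 5 libraries, a highest or lowest value was picked out when its gap to the nearest library exceeded 0.71 of the group's range (Dixon's 95% value), which happens by chance in about 1 of 20 groups. Of 72 groups, 5 had such a library. *Arg1* in M1 of *Famin* p.254I replicate 5 was at 40.8 CPM, with the next library at 0.902. *Nos2* in M1 of *Famin* p.254V replicate 2 was at 4.92 CPM, with the next at 17.8. *Nos2* in M0 of *Famin* p.254V replicate 1 was at 0.0328 CPM, a single count, with the others at 0. *Arg2* in M0 of *Famin* p.284R replicate 1 was at 3.47 CPM, with the next at 1.08. *Asl* in M2 of *Famin* p.254I replicate 5 was at 54.3 CPM, with the next at 49.9.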

How the results depend on the processing

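Of 35 gene results with an unadjusted p under 0.05, none reversed in any alternative fit, 828 refits kept the side of the threshold, 55 lost the call and 1 gained it. Requiring at least 10 counts in every library left 5 of the genes tested, without *Nos2*, *Arg1* and *Arg2*, so 5 genes were called in M1 against M0, 4 in M2 against M0 and 4 in M1 against M2, and 0 in both M1 comparisons with *Famin* p.284R. For *Famin* p.284R against p.254I in M1, where 2 were called, 1 was called with no low-count filter, with the replicate block (*Nos2*, 2.02), by DESeq2 or without the *Famin* p.254I replicate 5 M1 library, an alternative chosen after seeing the data, and 0 by either limma-voom fit or with only the libraries compared, and 0 to 2 leaving out a mouse. Against *Famin* p.254V in M1, where 1 was called, 0 were called by either limma-voom fit, DESeq2, no filter or only the libraries compared, and 0 to 1 leaving out a mouse. DESeq2 called 1 for *Famin* p.254V against p.254I in M1 (*Arg1*). The cause was not tested. Over all genes, calls for *Famin* p.284R against p.254I in M1 numbered 34, and 64 with the replicate block, 64 by DESeq2, 11 by limma-voom, 7 with the mouse as its random block, 1 with only the libraries compared, and 0 (without *Famin* p.284R replicate 5) to 109 (without replicate 2) leaving out a mouse. Against *Famin* p.254V they numbered 10, and 4 with no filter, 36 with the replicate block, 26 by DESeq2, 0 by limma-voom or with only the libraries compared, and 0 to 65 leaving out a mouse. Leaving out each library, the *Nos2* permutation difference in M1 ranged from 1.29 to 2.4 for *Famin* p.284R against p.254I, from 1.35 to 2.35 against p.254V, and from -0.44 to 0.41 between p.254V and p.254I, with the sign turned in 5 of 10, and the *Nos2* to *Arg1* ratio from 1.93 to 3.4, from 1.37 to 2.38, and from 0.19 to 1.47. Without *Famin* p.284R replicate 2 the unadjusted exact permutation p was 0.032, 0.016, 0.016 and 0.016 for the 4 with *Famin* p.284R. That library had the lowest *Nos2* of its genotype in M1 (8.6 CPM). Replicate 2 was also the lowest in *Famin* p.254I (3.01 CPM) and p.254V (4.92 CPM), and those libraries stayed in these refits. The groups then no longer held the same numbers, so no conclusion is drawn from these p. The smallest p such refits allow is 0.016, and the p of refits without other libraries are not given here. With all libraries the same 4 p were 0.095, 0.087, 0.056 and 0.087. Depth limits *Nos2* and *Arg1* in M0 and *Arg2* in M1, where libraries held as few as 0 or 1 counts.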
